A study of Homo sapiens with 15 samples.

Results

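The plasminogen activator system was followed here through 5 of its genes, PLAU, PLAUR, PLAT, SERPINE2 and SERPINB2, chosen by name from the 58219 genes of the count table. The choice was made with earlier results of these data known. These genes were measured by RNA-Seq in 15 libraries of BEAS-2B, an immortalized human bronchial epithelial cell line grown as a single layer on collagen in serum-free medium. Cells received PM2.5 once at 1 µg/cm2 or 30 µg/cm2, or vehicle, and were collected after 24 h. In the repeated protocol they received vehicle or PM2.5 at 1 µg/cm2 daily, with a wash between exposures, and were collected on day 7. Each of these 5 groups holds 3 libraries, whose number names 1 of 3 independent experiments within a protocol. The PM2.5, fine particles from the winter air of Beijing, was sonicated off filters in water. The labels and the methods differ by 1 on the number of daily exposures, and cells of the repeated protocol were plated more thinly. A submerged culture of 1 cell line models epithelium alone, without the leukocytes, endothelium or plasma that supply parts of this system in the airway.

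Plasminogen activators are serine proteases that cut plasminogen, a zymogen made mainly in the liver, into plasmin, which dissolves fibrin and acts on the matrix around cells. PLAU encodes urokinase, which works largely at the cell surface on its anchored receptor PLAUR, and PLAT encodes tissue plasminogen activator, best known for fibrin clots. SERPINE2 encodes protease nexin-1, a secreted inhibitor of urokinase, plasmin and thrombin. SERPINB2 encodes plasminogen activator inhibitor type 2, a serpin that inhibits urokinase and is kept mostly inside the cell, and is known as a gene switched on by inflammatory signals. In the airway, the balance of activators and inhibitors bears on fibrin removal, epithelial repair and cell movement.

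The gene IDs and positions on GRCh38 are as follows. PLAU (ENSG00000122861.15) lies on the plus strand at chr10:73909177-73917497 and PLAUR (ENSG00000011422.11) on the minus strand at chr19:43646095-43670547. PLAT (ENSG00000104368.17) lies on the minus strand at chr8:42175233-42207724, SERPINE2 (ENSG00000135919.12) on the minus strand at chr2:223975112-224039319 and SERPINB2 (ENSG00000197632.8) on the plus strand at chr18:63871692-63903890, within a cluster of related serpin genes. PLAU shares 916 exon bases with C10orf55 on the opposite strand, which held 16 to 35 counts a library, and SERPINB2 shares 547 exon bases with SERPINB10 on the same strand, which held 0 to 4. Reads from such shared bases cannot be assigned with certainty, and the strand setting of the counting was not given.

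The promoters of the gene with the largest response, of the receptor and of urokinase are shown so that the windows behind unlike responses can be set side by side. Windows of 250 bases before a RefSeq transcription start on GRCh38.p14 were found for 4 of the 5 genes. They were searched on both strands for TGANTCA, the AP-1 site, TGACGTCA, the cyclic AMP response element, TGACNNNGC, the core of the antioxidant response element bound by NRF2, GCGTG, the core bound by the aryl hydrocarbon receptor, and TATAAA, the TATA box. The first and the third of these motifs can overlap. Capitals mark the matches, and a match is a description of letters and not of binding.

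SERPINB2, chr18:63887455-63887704, plus strand: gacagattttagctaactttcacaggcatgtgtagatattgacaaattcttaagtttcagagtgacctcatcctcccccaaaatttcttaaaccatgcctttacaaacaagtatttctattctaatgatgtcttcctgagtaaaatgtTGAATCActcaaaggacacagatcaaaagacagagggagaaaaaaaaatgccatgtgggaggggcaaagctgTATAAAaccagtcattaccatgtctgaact
PLAUR, chr19:43670170-43670419, minus strand: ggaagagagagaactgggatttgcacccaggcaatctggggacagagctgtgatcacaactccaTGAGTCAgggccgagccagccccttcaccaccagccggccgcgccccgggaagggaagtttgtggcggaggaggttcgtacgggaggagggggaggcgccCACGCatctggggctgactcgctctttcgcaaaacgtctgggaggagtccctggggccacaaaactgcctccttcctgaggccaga
PLAU, upstream start, chr10:73910360-73910609, plus strand: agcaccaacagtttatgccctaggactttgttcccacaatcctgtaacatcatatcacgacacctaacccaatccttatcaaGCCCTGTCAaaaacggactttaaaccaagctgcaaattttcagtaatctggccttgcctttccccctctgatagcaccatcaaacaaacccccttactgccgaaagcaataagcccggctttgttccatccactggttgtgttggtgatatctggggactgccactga
PLAU, downstream start, chr10:73910882-73911131, plus strand: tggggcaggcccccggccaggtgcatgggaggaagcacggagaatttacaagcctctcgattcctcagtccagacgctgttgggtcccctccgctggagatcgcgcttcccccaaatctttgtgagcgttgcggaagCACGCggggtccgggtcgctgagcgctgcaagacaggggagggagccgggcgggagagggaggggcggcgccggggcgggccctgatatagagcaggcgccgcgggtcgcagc

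The SERPINB2 window held TGAATCA, an AP-1 match, beginning 102 bases before the start and TATAAA beginning 30 bases before it, and its GC content was 37.2%. The PLAUR window, with 63.2% GC, held TGAGTCA, also an AP-1 match, 186 bases before the start and 1 aryl hydrocarbon receptor core. The upstream PLAU window held 1 match to the antioxidant element and the downstream window 1 aryl hydrocarbon receptor core, and neither held an AP-1 match. SERPINE2 has windows at chr2:224031479-224031728 and chr2:224038641-224038890 on the minus strand, of which the first held 2 antioxidant element matches and the second 1 aryl hydrocarbon receptor core. Among 35116 promoter windows of this length, 6.57% held the AP-1 letters, 1.65% the cyclic AMP element, 10.9% the antioxidant element, 32.2% the aryl hydrocarbon receptor core and 10.7% TATAAA. No window of these genes held the cyclic AMP element.

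Between 21460981 and 34724765 counts were assigned to genes in a library, so that 3 counts, taken as the floor, equalled 0.0864 to 0.14 CPM, the count scaled to the total of its library. All 5 genes passed the filter on low counts, with 17599 genes tested in all. Below, an expression level is a CPM after edgeR's TMM scaling, and a gene is called where its Benjamini-Hochberg adjusted p in edgeR's quasi-likelihood test is under 0.05 and its absolute log2 fold-change is at least 0.6. Since numbers pair libraries within a protocol, a value from the same test with the experiment as a replicate block is given where it changes a call. At 24 h, experiment 2 stood apart from the other two. Leaving it out raised the number of genes called for 30 µg/cm2 against control from 1420 to 3430. Values without it therefore stand beside the results of the 5 genes for that comparison. They are given for only some results of other comparisons, and not for the other genes of the system. All 12 epithelial markers examined were above the floor in some library, among them keratins and E-cadherin, as were all 8 mesenchymal markers including vimentin, whereas summed endothelial markers and summed ciliated and secretory markers stayed below 1 CPM in every library. Of 5 leukocyte markers, CD14, at 2.30 to 23.5 CPM, was the 1 gene tested, and PTPRC, the pan-leukocyte marker, stayed at or below 0.068 CPM. Since these are bulk libraries, fewer cells of one kind and less RNA per cell cannot be told apart.

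To compare levels between genes, CPM was divided by exon length in kilobases. In 24-h control cells, PLAU was the most abundant of the 5 genes at 25.1 ± 9.53 CPM per kb (SD, n = 3), followed by PLAUR at 5.55 ± 0.491, PLAT at 3.52 ± 0.229, SERPINE2 at 2.19 ± 0.944 and SERPINB2 at 0.153 ± 0.0571. No library of one gene reached the range of its neighbour in this order. With 30 µg/cm2 at 24 h the order was PLAU at 14 ± 2.75 CPM per kb, PLAUR at 6.28 ± 1.06, SERPINE2 at 4.83 ± 0.542, SERPINB2 at 4.51 ± 2.51 and PLAT at 2.30 ± 0.0788. The ranges of PLAUR, SERPINE2 and SERPINB2 overlapped here, and that of PLAT lay within that of SERPINB2. The transcript of the activator urokinase thus remained the highest of the 5, while PLAT went from the third to the last place. Plasminogen itself (PLG) had 0 counts in every library, which allows up to 0.14 CPM.

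**Figure D1:**
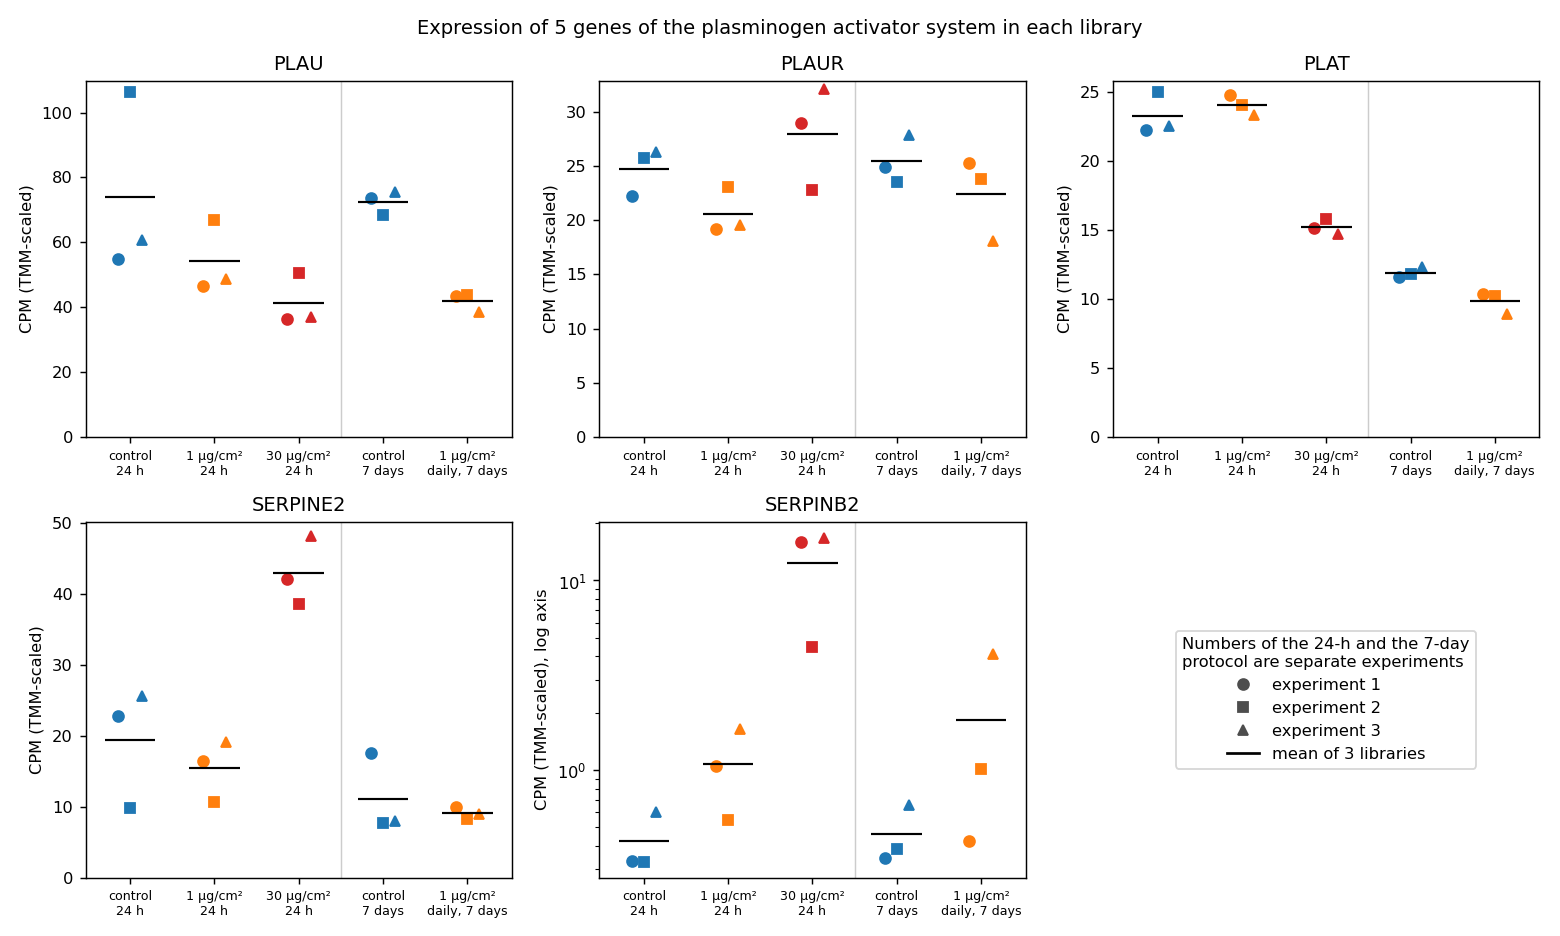
Expression of each gene in every library, as TMM-scaled CPM on the vertical axis, with a log axis for SERPINB2, for the 5 groups on the horizontal axis. Symbols mark the experiment and bars the mean of 3 libraries, and the 30 µg/cm2 libraries lie apart from the 24-h controls for PLAU, PLAT, SERPINE2 and SERPINB2.

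Cells given the high concentration for 24 h had lower expression of both activators, higher expression of the inhibitor SERPINB2 and no called difference in the receptor. SERPINB2 rose and PLAU and PLAT fell, so that 3 of 5 genes were called, beside 8.07% of all genes tested. Because the genes were chosen with earlier results of these data known, such shares are descriptions only. SERPINE2, the second inhibitor, was higher in all 9 pairs of treated and control libraries but was not called in this fit. It was called by DESeq2, by edgeR's likelihood ratio test and with the replicate block, under which 4 of 5 genes were called beside 15.2% of all genes. The libraries of the groups did not overlap for 4 of 5 genes, against 22.8% of all genes tested.

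SERPINB2 was near the floor in control cells, at 0.331, 0.330 and 0.602 CPM in experiments 1, 2 and 3, which were 11, 7 and 17 counts. With 30 µg/cm2 it stood at 15.9, 4.44 and 16.8 CPM, or 485, 128 and 350 counts. No treated library came near the controls, and experiment 2 was the lowest of the treated libraries. The log2 fold-change was 4.86 ± 0.788 (SE; edgeR quasi-likelihood test, adjusted p = 0.00148), with differences of 5.32, 3.50 and 4.65 within the experiments. The call held in each of the 6 fits that left out 1 library of the comparison, with fold-changes of 4.58 to 5.25 on the log2 scale, and without experiment 2, with 5.13.

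SERPINE2 in control cells was 22.8, 9.89 and 25.7 CPM in experiments 1, 2 and 3, and with 30 µg/cm2 it was 42.1, 38.6 and 48.1 CPM. The groups did not overlap, and the low control library of experiment 2 carried much of the spread. Its log2 fold-change of 1.14 ± 0.352 had an adjusted p of 0.0569 in edgeR's quasi-likelihood test without a block. The blocked fold-change was 1.23 ± 0.205 on the log2 scale (edgeR, adjusted p = 0.000741), and the difference was positive within every experiment, at 0.88, 1.96 and 0.91. It was 0.88 (adjusted p = 0.0102 in edgeR) without experiment 2.

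PLAU was 54.9, 106.2 and 60.6 CPM in control cells and 36.3, 50.7 and 37.0 CPM with 30 µg/cm2, in experiments 1, 2 and 3. Each treated library was below each control library, and the control of experiment 2 was far above the others. Expression fell by 0.84 ± 0.227 on the log2 scale (edgeR quasi-likelihood test, adjusted p = 0.0309). Without control library 2 the difference was -0.49 and was not called (adjusted p = 0.127 in edgeR), nor was it called without treated library 1 (0.133) or 3 (0.132). Blocked by experiment, the difference was -0.80 ± 0.103 (edgeR, adjusted p = 0.00012), with -0.60, -1.07 and -0.71 within the experiments, and it was -0.67 without experiment 2 (adjusted p = 2.82e-05 in edgeR).

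PLAT was the most even of the genes, at 22.3, 25.0 and 22.5 CPM in control cells and 15.1, 15.8 and 14.8 CPM with 30 µg/cm2. The groups lay well apart. It fell by 0.61 ± 0.108 on the log2 scale (edgeR quasi-likelihood test, adjusted p = 0.00267), which is close to the fold threshold of 0.6. The difference was -0.60 without experiment 2, -0.56 without control library 2 and -0.59 without treated library 3, each below the fold threshold although the adjusted p in edgeR stayed between 0.000227 and 0.0198.

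PLAUR, the urokinase receptor, was 22.2, 25.7 and 26.3 CPM in control cells and 29.0, 22.8 and 32.1 CPM with 30 µg/cm2. The groups overlapped, because experiment 2 went down where experiments 1 and 3 went up. The log2 fold-change of 0.18 ± 0.159 was not called (edgeR quasi-likelihood test, adjusted p = 0.556). Without experiment 2 it was 0.32 and was not called either (edgeR, adjusted p = 0.0819).

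The low concentration given once was compared with the same 24-h control libraries. None of the 5 genes was called at 1 µg/cm2 for 24 h by edgeR's quasi-likelihood test, by DESeq2 or by edgeR's likelihood ratio test, and none had an unadjusted p under 0.05 in these tests, beside 0.0625% of all genes called. Under the block 0 of 5 genes were called, beside 0.42% of all genes, and 2 had an unadjusted p under 0.05. SERPINB2 was 1.05, 0.545 and 1.65 CPM and was higher in 8 of 9 pairs of libraries, with a log2 fold-change of 1.37 ± 0.794 (edgeR quasi-likelihood test, adjusted p = 1). PLAU was 46.6, 67.0 and 48.7 CPM, a difference of -0.45 ± 0.225. The other differences were -0.26 ± 0.160 for PLAUR, 0.05 ± 0.107 for PLAT and -0.34 ± 0.351 for SERPINE2 on the same scale.

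Set directly against 1 µg/cm2 at 24 h, the high concentration gave calls for PLAT, SERPINE2 and SERPINB2, 3 of 5 genes beside 7.84% of all genes. SERPINB2 was higher by 3.48 ± 0.714 (adjusted p = 0.00754) and SERPINE2 by 1.48 ± 0.356 (adjusted p = 0.0177), and PLAT was lower by 0.66 ± 0.108 (adjusted p = 0.00196), on the log2 scale in edgeR's quasi-likelihood test. SERPINE2 was 16.5, 10.7 and 19.1 CPM at the low concentration, below every library at the high one. Its call was lost without low library 1 (edgeR, adjusted p = 0.0523) and without high library 1 (0.0563) or 3 (0.0701). PLAU differed by -0.39 ± 0.226 and was not called. Its mean level at 1 µg/cm2 lay between those of control and 30 µg/cm2, and the differences within experiments 1, 2 and 3 were -0.36, -0.40 and -0.39. Blocked by experiment, the difference of -0.39 ± 0.103 (edgeR, adjusted p = 0.0128) was below the fold threshold. PLAUR was 19.2, 23.1 and 19.6 CPM at 1 µg/cm2 and higher by 0.44 ± 0.160 at 30 µg/cm2 (edgeR, adjusted p = 0.101). Without experiment 2, PLAUR was higher by 0.63 and was called (edgeR, adjusted p = 0.00225).

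Exposure to 1 µg/cm2 each day asked whether a low concentration acts when repeated. Compared within experiments, PLAU was lower than in control cells of the same protocol. SERPINB2 was higher by unlike amounts, at 0.25, 1.25 and 2.51 on the log2 scale in experiments 1, 2 and 3. No gene of the 5 was called by edgeR's quasi-likelihood test without a block, beside 0.227% of all genes, although 3 had an unadjusted p under 0.05. DESeq2 called 1, PLAU, and edgeR's likelihood ratio test 0. Blocking by experiment gave 2 calls of 5, PLAU and SERPINB2, beside 4.39% of all genes. The call of SERPINB2 was lost without library 3 and also without library 2. The libraries of the groups did not overlap for PLAU and PLAT, 2 of 5 genes, against 42.9% of all genes tested.

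PLAU was 73.5, 68.3 and 75.4 CPM in control cells of experiments 1, 2 and 3 and 43.6, 43.7 and 38.7 CPM after daily exposure. The groups were tight and well separated, with the highest exposed library far below the lowest control. Its log2 difference of -0.79 ± 0.226 missed the threshold in the model that shares its spread with the 24-h libraries (edgeR quasi-likelihood test, adjusted p = 0.173). The blocked difference was -0.79 ± 0.103 (edgeR, adjusted p = 0.00212), and PLAU remained called in each of the 6 blocked fits that left out 1 library, which were added after the data were seen. Fitted to the repeated protocol alone, the adjusted p in edgeR was 0.000174.

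SERPINB2 was 0.342, 0.386 and 0.659 CPM in control cells, or 9, 12 and 21 counts, and 0.421, 1.01 and 4.09 CPM after daily exposure, or 13, 35 and 131 counts. The exposed libraries were unlike each other, and that of experiment 1 lay within the control range. The log2 fold-change was 1.97 ± 0.751 (edgeR quasi-likelihood test, adjusted p = 0.312), with 0.25, 1.25 and 2.51 within the experiments. Its blocked value was 1.81 ± 0.385 (edgeR, adjusted p = 0.0135). This call rested on library 3, without which the blocked value was 0.96 (adjusted p = 0.281) and the unblocked value 0.62, and it was also lost without library 2 (blocked, adjusted p = 0.0642).

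PLAT was 11.6, 11.8 and 12.3 CPM in control cells and 10.4, 10.2 and 8.95 CPM after daily exposure. All exposed libraries were lower, but the difference of -0.27 ± 0.109 was not called (edgeR quasi-likelihood test, adjusted p = 0.336). PLAUR was 24.9, 23.6 and 27.9 CPM against 25.2, 23.8 and 18.1 CPM, with a log2 difference of -0.18 ± 0.159. SERPINE2 was 17.6, 7.71 and 7.97 CPM in controls and 9.98, 8.32 and 8.92 CPM after exposure. Its log2 difference of -0.29 ± 0.356 turned to 0.21 without control library 1, the only control above the exposed libraries.

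**Figure D2:**
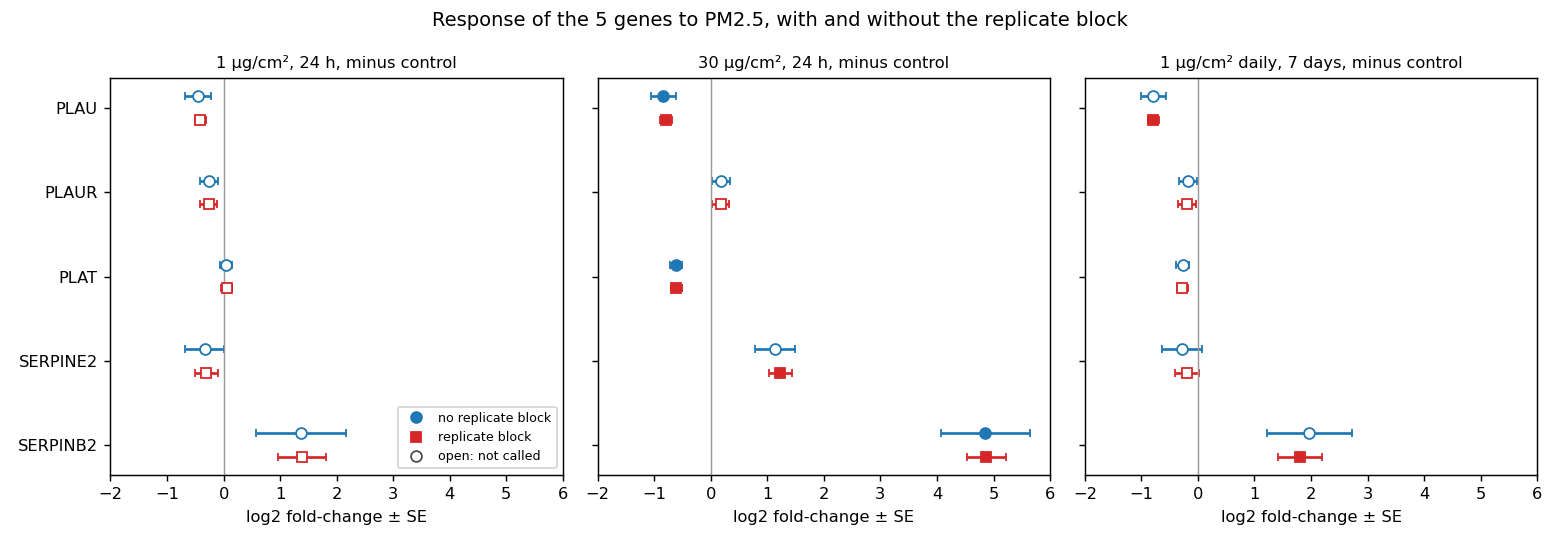
Log2 fold-change of each gene against its own control with SE bars, without (circles) and with (squares) the replicate block, where filled symbols mark calls. SERPINB2 lies farthest to the right in each panel, and PLAU lies left of 0 in all 3, at -0.45, -0.84 and -0.79 without the block.

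Whether the response to the low concentration differed between daily and single exposure was tested as an interaction. None of the 5 genes was called by edgeR's quasi-likelihood test, beside 0% of all genes (0 of 17599, with 1245 at an unadjusted p under 0.05), and none had an unadjusted p under 0.05. Under the block 0 of 5 and 181 genes in all were called, by DESeq2 0 of 5 and 75, and by edgeR's likelihood ratio test 0 of 5 and 13. Unadjusted p-values under 0.05 numbered 2, 1 and 0 of 5 in these. The differences between the responses were -0.34 ± 0.318 for PLAU, 0.08 ± 0.225 for PLAUR, -0.32 ± 0.153 for PLAT, 0.05 ± 0.50 for SERPINE2 and 0.60 ± 1.10 for SERPINB2 on the log2 scale. At this precision, a log2 difference of 1 for SERPINB2 could not have been told from 0.

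The vehicle controls of both protocols were compared to show what the protocols themselves change. PLAT was 22.3, 25.0 and 22.5 CPM in 24-h controls and 11.6, 11.8 and 12.3 CPM in 7-day controls, with no overlap. It was lower in the latter by 0.97 ± 0.109 on the log2 scale (edgeR quasi-likelihood test, adjusted p = 4.26e-05), and it was the 1 gene of 5 called, beside 21.9% of all genes tested. Groups did not overlap for PLAT alone of the 5 genes, against 52.3% of all genes. SERPINE2 was lower by 0.82 ± 0.354 (edgeR, adjusted p = 0.0996) and was called without experiment 2, at -1.16 (adjusted p = 0.000569). PLAU at -0.03 ± 0.224, PLAUR at 0.04 ± 0.159 and SERPINB2 at 0.14 ± 0.846 differed by less than their SE. Time in culture, plating density, washing and the experiment cannot be told apart in this comparison, since the protocols share no experiment.

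Ordered by mean CPM over the groups, PLAU was highest in the 24-h and 7-day controls, at 73.9 ± 28.1 and 72.4 ± 3.67 (SD, n = 3), which overlapped, then 54.1 ± 11.2 with 1 µg/cm2 for 24 h, 42.0 ± 2.86 with daily exposure and 41.3 ± 8.11 with 30 µg/cm2. The last pair also overlapped. SERPINB2 ran the opposite way, from 0.421 ± 0.157 and 0.462 ± 0.172 in the controls through 1.08 ± 0.553 and 1.84 ± 1.97 at the low concentration to 12.4 ± 6.89 at the high one, and only this last group lay above every library of the others. PLAT instead divided the protocols, with 24.1 ± 0.715, 23.3 ± 1.52 and 15.2 ± 0.521 at 24 h and 11.9 ± 0.363 and 9.85 ± 0.785 on day 7. SERPINE2 was highest with 30 µg/cm2, at 42.9 ± 4.82, above every other library. Group means of PLAUR spanned only 20.6 to 28.0 CPM, with overlap between each pair of neighbours in the order. Across the 15 libraries, log2 CPM of PLAU and SERPINB2 had a Pearson r of -0.73 and SERPINE2 and SERPINB2 one of 0.65, which are descriptions over libraries that share groups and experiments.

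The genes most like each member across the 15 libraries, by Pearson r of log2 CPM, were named from the whole table. For SERPINB2 they were IL1A and IL24, which encode cytokines, and STC2, which encodes a secreted glycoprotein (r = 0.94, 0.94 and 0.93). IL1A was 29.3, 13.8 and 33.1 CPM with 30 µg/cm2 against 4.94, 1.84 and 5.35 in controls, and 6.32, 6.87 and 15.3 CPM after daily exposure against 3.16, 2.31 and 4.33. As for SERPINB2, the third exposed library was the highest of its group. For SERPINE2 the genes were HMGA1, a chromatin protein, ANGPTL4, a lipase inhibitor, and WDR12 (r = 0.96, 0.95 and 0.95), and for PLAT they included LINC03061 and EHD2 (r = 0.98 each). For PLAU they were RUFY1, BANK1 and STAT5A (r = 0.91, 0.90 and 0.89). PLAUR had no close companion, the highest being PMS2P2, HSF2BP and ENSG00000275993 (r = 0.82, 0.82 and 0.81). Libraries of a group or of an experiment are not independent in such a correlation. The parts of groups and of experiments in r were not separated.

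Another 46 genes that bind, process or are processed by the system were listed by role, of which 38 passed the filter. With 30 µg/cm2 at 24 h, 2 of the 38 rose and 5 fell, with a median log2 fold-change of -0.05 against 0.03 over all genes tested, of which 8.07% were called. Under the block 3 rose and 8 fell, beside 15.2% of all genes called. Of the 6 surface proteins that bind plasminogen, 3 fell and 0 rose in either fit, with a median of -0.60.

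Among these surface proteins, ANXA2 and S100A10 form the complex that holds plasminogen and tissue activator at the cell membrane. S100A10 was 344.4, 496.7 and 413.9 CPM in 24-h controls and 115.3, 266.6 and 132.1 CPM with 30 µg/cm2, with no overlap, and fell by 1.29 ± 0.278 on the log2 scale (edgeR quasi-likelihood test, adjusted p = 0.0093). ANXA2 was 1608, 1557 and 1916 CPM in controls and 847.4, 1325 and 884.8 CPM with 30 µg/cm2, and fell by 0.73 ± 0.163 (adjusted p = 0.0109). The decrease of both was smaller in experiment 2 than in the others. KRT8, a keratin that can bind plasminogen when exposed at the surface, fell by 0.85 ± 0.250 (adjusted p = 0.0462), and ENO1, PLGRKT and HMGB1 were not called. KRT8 is also 1 of the 12 epithelial markers. Of these, 5 fell (KRT8, KRT19, KRT7, KRT5 and CDH1) and 0 rose with 30 µg/cm2, beside 8.07% of all genes called. Their summed level, weighted to abundant keratins, was 4074 to 4526 CPM in 24-h controls and 1879 to 2986 CPM with 30 µg/cm2. It was 3755 to 4545 CPM in 7-day controls and 2755 to 2983 CPM after daily exposure. Daily exposure gave 1 call of 12 without a block, KRT5, which was lower, beside 0.227% of all genes. Under the block 3 fell (KRT19, KRT5 and CDH1) and 0 rose, beside 4.39% of all genes. CLDN4 went the other way, at 14.8, 14.4 and 16.1 CPM in 7-day controls and 23.8, 21.8 and 17.6 CPM after daily exposure. The part of these lower sums in the results on PLAU, PLAT and the binding proteins was not tested. ANXA2, ENO1, HMGB1 and KRT8 have processed pseudogenes, and how reads shared with them were counted was not given.

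Of the genes for clearance and binding, 1 of 7 fell with 30 µg/cm2, beside 8.07% of all genes called. This was SORL1, a sorting receptor that takes up complexes of urokinase and its inhibitor, at 7.00, 5.27 and 6.51 CPM against 18.2, 12.0 and 11.8 in controls, a fall of 1.17 ± 0.315 on the log2 scale (edgeR, adjusted p = 0.0308). LRP1, the main endocytic receptor of these complexes, was 139.0, 107.3 and 118.0 CPM against 211.8, 198.2 and 145.7 (log2 difference -0.61 ± 0.190, adjusted p = 0.0595) and was called with the replicate block (adjusted p = 0.00336). None of the 5 tested activating proteases, among them ST14 (matriptase) and HPN (hepsin), which activate pro-urokinase, and CTSB (cathepsin B), was called. None of the 6 integrins was called without a block, and ITGA3, which associates with the urokinase receptor, had 0.61 ± 0.243 and was called with it.

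Among the other inhibitors 1 of 7 was called without a block, beside 8.07% of all genes, and 3 of 7 with it, beside 15.2%. SERPINB8, an intracellular serpin that inhibits furin, was 22.4, 15.7 and 23.6 CPM in controls and 42.6, 28.8 and 41.9 CPM with 30 µg/cm2, and rose by 0.87 ± 0.225 (edgeR, adjusted p = 0.024). The falls called under the block were those of SERPINA5, the protein C inhibitor, at -1.57 (edgeR, adjusted p = 0.0285), and of SERPING1, the C1 inhibitor, at -0.85 (adjusted p = 0.0119). SERPINA5 was near the floor, at 0.13, 0.83 and 0.048 CPM with 30 µg/cm2 against 0.66, 1.8 and 0.46 in controls. SERPING1 was 0.76, 1.6 and 0.91 CPM against 1.4, 3.4 and 1.3. The groups overlapped for both genes. Among 7 substrates and targets, MMP1, the interstitial collagenase whose proenzyme plasmin can activate, rose from 1.81, 1.27 and 1.74 CPM to 5.65, 5.34 and 6.56 CPM, by 1.86 ± 0.379 (adjusted p = 0.00672). PDGFC, a growth factor that tissue activator cleaves, fell by 1.09 ± 0.210 (adjusted p = 0.00454).

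With 1 µg/cm2, none of the 38 genes was called after 24 h or after daily exposure without a block. Under the block 4 fell after daily exposure and 0 rose, beside 4.39% of all genes called. Of these, 3 belonged to clearance and binding, LRP1, SORL1 and DPP4, a surface peptidase that binds plasminogen, and 1 was a matrix substrate, FN1 (fibronectin). LRP1 was 297.2, 307.7 and 285.2 CPM in controls and 150.1, 155.6 and 141.0 CPM after daily exposure, a blocked log2 difference of -0.99 ± 0.127 (edgeR, adjusted p = 0.00207). SORL1 was 55.5, 59.3 and 52.0 CPM against 31.8, 33.1 and 26.2 CPM. FN1 was 685.2, 656.5 and 627.8 CPM against 351.8, 355.1 and 424.8 CPM. Every exposed library of these 3 genes was below every control library, which held for 42.9% of all genes tested in one direction or the other.

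**Figure D3:**
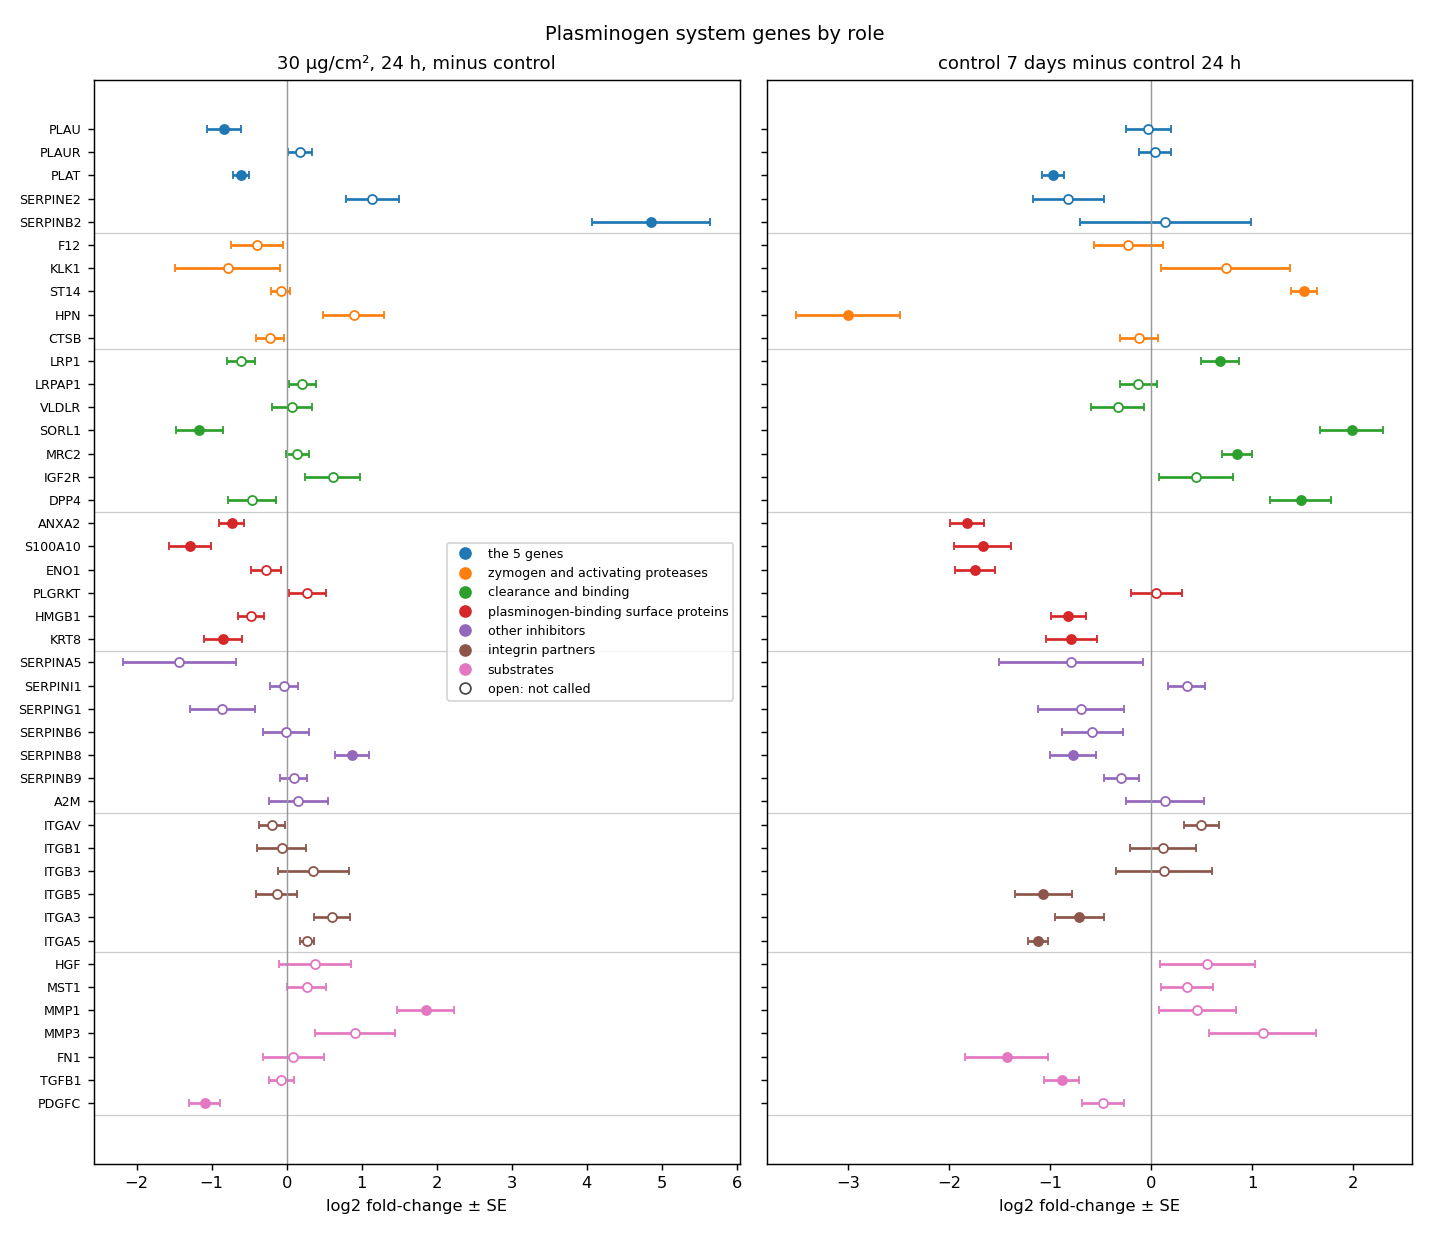
Log2 fold-change with SE bars for the 5 genes and 38 other genes of the system, coloured by role, for 30 µg/cm2 against control at 24 h (left) and 7-day against 24-h controls (right). Filled symbols mark calls, which numbered 3 and 1 among the 5 genes and 7 and 17 among the others.

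The controls of both protocols differed in 17 of the 38 genes, 5 higher and 12 lower on day 7, beside 21.9% of all genes called, with a median of -0.18 against 0.02 over all genes tested. Here 4 of 7 genes for clearance and binding were higher (LRP1, SORL1, MRC2 and DPP4) and 5 of 6 plasminogen-binding proteins were lower (ANXA2, S100A10, ENO1, HMGB1 and KRT8). ANXA2 fell from 1608, 1557 and 1916 CPM to 488.3, 455.9 and 495.4 CPM, by 1.82 ± 0.167 (edgeR, adjusted p = 1.06e-05). Of the proteases that activate pro-urokinase, ST14 was higher by 1.52 ± 0.130 and HPN, at under 3 CPM in all libraries, was lower by 2.998 ± 0.517.

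The serpin cluster on chromosome 18 that holds SERPINB2 has 9 other listed genes, of which 6 were tested. SERPINB8, described above, was the 1 neighbour called higher with 30 µg/cm2, and none was called lower without a block, beside 8.07% of all genes called. Under the block SERPINB7 was also called, at -1.12 on the log2 scale (edgeR, adjusted p = 0.0374), beside 15.2% of all genes. SERPINB5 (maspin) was the most abundant of the tested neighbours. Its levels were 62.5, 37.9 and 68.3 CPM in 24-h controls and 62.1, 37.8 and 63.5 CPM with 30 µg/cm2, libraries that overlapped fully. SERPINB13 was 0.197, 1.21 and 0.144 CPM with 30 µg/cm2 against 3.13, 4.21 and 2.95 with 1 µg/cm2, lower by 2.67 ± 0.791 (edgeR, adjusted p = 0.0472), but its 24-h controls of 0.602, 2.68 and 0.213 CPM overlapped the former. SERPINB3 and SERPINB4 are nearly identical in sequence, so that the split of reads between them is uncertain.

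**Figure D4:**
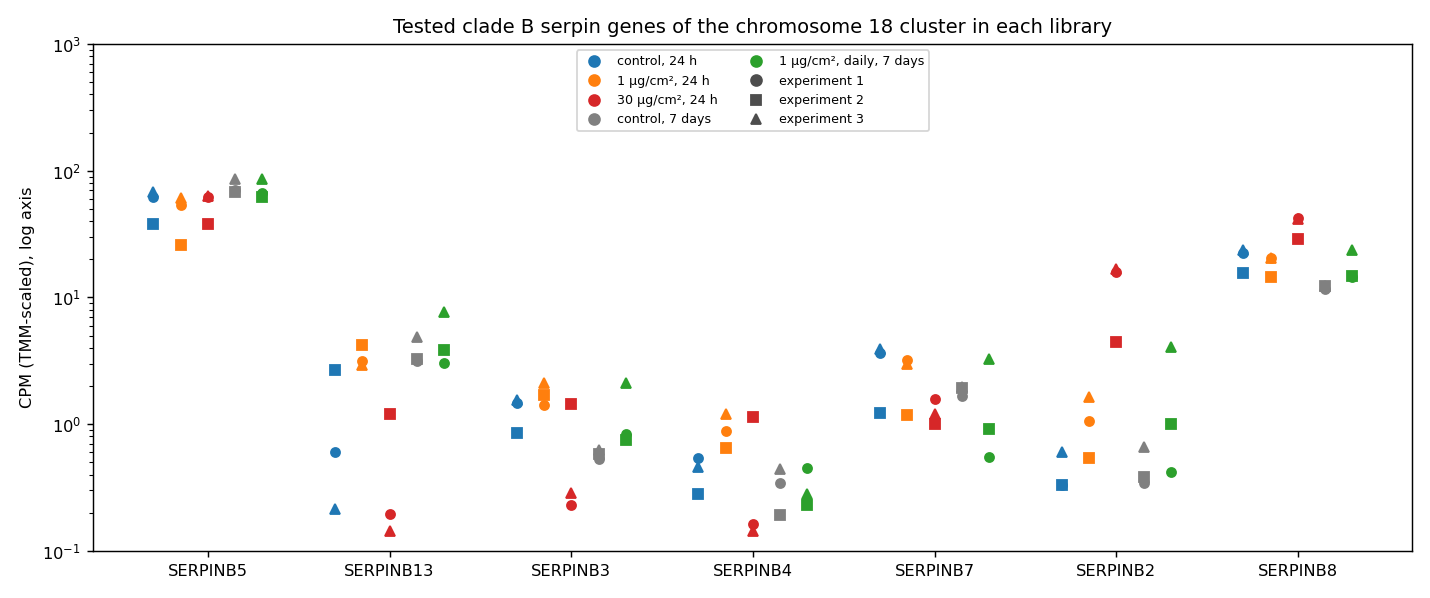
TMM-scaled CPM on a log axis for SERPINB2 and the 6 tested serpin genes of its cluster in each library, coloured by group, with a symbol for each experiment. SERPINB2 reaches 4.44 to 16.8 CPM with 30 µg/cm2 from below 1 CPM in controls, while SERPINB5 overlaps in both.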

How the data were processed

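BEAS-2B cells were profiled by poly(A) RNA-Seq in 15 libraries. The authors deposited a table of raw counts per gene, aligned with STAR to GRCh38 according to the methods and counted with featureCounts. The submitters' processing notes name hg19, but the coordinates in the table are those of GRCh38. The annotation, the strand setting and the options of counting are not given in the sources used here. All counts in the table belonged to the 15 libraries.

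After filterByExpr (17599 genes kept of 58219) and TMM scaling, edgeR 4.0.16 (R 4.3.3) was used to fit 1 quasi-likelihood model in its earlier mode, with a mean per group and no block. The study's methods name edgeR's quasi-likelihood fit and mention no block, but do not say whether 1 model held all libraries. Calling needed a Benjamini-Hochberg adjusted p under 0.05 over all genes tested, and a log2 fold-change of 0.6 or more in either direction. The SE was taken as the size of the log2 fold-change over the root of its F statistic. Correlations used log2 CPM with a prior count of 2. The procedure was tested on simulated data.

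Replicate numbers pair libraries within a protocol because the series record gives them as experimental batches. Deviations from group means correlated at 0.20 to 0.72 between the 9 pairs of 24-h libraries of the same number and at 0.12 to 0.18 between the 3 pairs of the repeated protocol. Pairs of unlike numbers had -0.68 to 0.45 (18 pairs at 24 h) and -0.13 to -0.03 (6 pairs of the repeated protocol). The ranges thus overlapped at 24 h. Deviations of the 3 libraries of a group sum to 0, so values of like and unlike numbers are not independent of each other. Numbers of the 2 protocols mark different experiments and were blocked separately. Whether experiments came from separate thaws or passages was not stated, so unblocked p-values measure the spread between these experiments. Blocked p-values measure the spread that remains once differences between these experiments are fitted.

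Alternatives were other scaling, filters, tools (DESeq2 1.42.0 and edgeR's likelihood ratio test), the block, fits of the compared libraries alone, and leaving out libraries. The members and gene lists were chosen with earlier results of these data known. The genes named are the 5 members, the members of the lists by role, the markers and the 3 genes closest to each member. Some genes of the system and of the closest genes are not reported here. A floor of 3 counts covers counting error only. Promoter sequences are from RefSeq on GRCh38.p14, matched by symbol, for 4 of 5 members, and exon lengths are from the deposited table.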

Additional observations from a re-analysis of the deposited data

How the results depend on the processing

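Counts of the 5 genes called were those given above under RLE scaling, under a filter at 1 CPM in 3 libraries and in edgeR's current quasi-likelihood mode. Without a filter, SERPINE2 was called for 30 µg/cm2 against control and on day 7 against 24 h (2 of 5 genes there), and 38, 92 and 20 genes in all were called for 1 µg/cm2 at 24 h, for daily exposure and for the interaction. The replicate block moved the counts of all genes called to 2681 (30 µg/cm2 against control), 74 (1 µg/cm2), 2737 (30 against 1 µg/cm2), 773 (daily, with 2 of 5 genes) and 181 (interaction). It changed no other call of the 5 genes than those given above. DESeq2 called 39, 250 (with 1 of 5 genes) and 75 genes and edgeR's likelihood ratio test 34, 194 and 13 for 1 µg/cm2, daily exposure and the interaction. Both called SERPINE2 for 30 µg/cm2 against control, where they called 1829 and 1839 genes in all.

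Fitted to the compared libraries alone, which leaves fewer libraries to estimate the spread, 1 of 5 genes was called for 30 µg/cm2 against control (SERPINB2), with PLAU at an adjusted p of 0.181 and PLAT at 0.0847 in edgeR, 0 of 5 for 30 against 1 µg/cm2 and 1 of 5 for daily exposure (PLAU). All genes called in these fits were 360 and 149 for 30 µg/cm2 against control and against 1 µg/cm2, 2 for 1 µg/cm2, 1029 for daily exposure and 1 for the interaction. Without experiment 2 of the 24-h protocol the counts were 3430, 3113 and 378 for 30 µg/cm2 against control, 30 against 1 µg/cm2 and 1 µg/cm2, and 1766 for the interaction, and the comparison of controls called 2 of 5 genes and turned PLAU to 0.31 on the log2 scale. The cause was not tested.

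Leaving out 1 library at a time gave 1 to 4 of 5 genes called for 30 µg/cm2 against control and 1 to 2 for the controls, the latter with SERPINE2 called without 24-h control 2 or 7-day control 1. With all libraries, 21.9% of all genes were called between the controls. All genes called ranged from 794 to 2706 for 30 µg/cm2 against control, 711 to 2715 for 30 against 1 µg/cm2, 4 to 45 for 1 µg/cm2, 0 to 11 for daily exposure and 0 to 63 for the interaction. Log2 differences that changed sign were uncalled ones. Between controls they ranged from -0.24 to 0.31 for PLAU, -0.0654 to 0.0953 for PLAUR and -0.21 to 0.46 for SERPINB2, after daily exposure from -0.49 to 0.21 for SERPINE2, and in the interaction from -0.0154 to 0.21 for PLAUR, -0.20 to 0.55 for SERPINE2 and -0.75 to 1.06 for SERPINB2. In the blocked fits that also left out 1 library, added after the data were seen, daily exposure gave 0.13 for SERPINE2 without control or exposed library 1 (0.134 and 0.135) and 0.02 for PLAUR without control or exposed library 3 (0.0164 and 0.0174). At 7 to 21 counts a control library, the fold of SERPINB2 is limited by counting error.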
